A study of Mus musculus with 24 samples.

Results

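The semaphorin, plexin and neuropilin genes of the mouse were followed through the CUT&RUN peak lists of 2 melanoma cell lines. Members were taken by symbol from the RefSeq gene table of assembly GRCm38.p6, which is mm10, and 31 of 21900 protein-coding genes met the rule. They were 7 secreted ligands (Sema3a to Sema3g), 12 transmembrane ligands of classes 4, 5 and 6, the GPI-anchored ligand Sema7a, 9 plexin receptors and the 2 neuropilin co-receptors. In CUT&RUN an antibody directs a nuclease that releases the DNA around the bound protein, and enriched positions are then called as peaks.

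Semaphorins are guidance cues that steer growing axons, migrating neural crest cells and blood vessels, and melanocytes descend from the neural crest. They signal through plexins, whose intracellular part switches off small GTPases of the Ras and Rap family, and the secreted class 3 ligands mostly bind a neuropilin that holds the plexin in a complex. KMT2D methylates lysine 4 of histone H3, mainly at enhancers and in a complex with UTX, while H3K4me3 and Menin are found mainly at promoters. ARID1A and SMARCC1 belong to SWI/SNF chromatin remodellers, and TFAP2A, TFAP2B and SOX10 are transcription factors of the neural crest and of pigment cells.

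Line 971 was labelled Kmt2d wild type (WT) and line 493 Kmt2d mutant (mutant), and both were labelled melanoma, grown in the same medium. The labels used here name neither the allele nor further tumour drivers, and with 1 line for each genotype, line and genotype cannot be told apart. Peak lists came from 22 of the 24 samples, 10 of WT and 12 of the mutant, and the 2 IgG controls were not analysed here. The 9 targets mapped in both lines were H3K4me3, Menin, UTX, ARID1A, SMARCC1, ARID2, PBRM1, BRD9 and TFAP2A. KMT2D was mapped in WT, and TFAP2B and SOX10 in the mutant, SOX10 with 2 antibodies called T and U.

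Each target and line had 1 library, so no difference between lines has a replicate check and no test is given. The read depth is not in the lists. A depth was rebuilt from each list's fold and p columns and its narrowest peak, taken as the fragment length. It was 1.61 to 2.44 times as high in the mutant as in WT for 8 of the 9 paired targets, and 0.411 times for SMARCC1. The fold and p columns fitted for 10.7% of mutant BRD9 peaks, fewer than in any other list, so that depth is uncertain. Lists held from 90 peaks (mutant BRD9) to 25385 (mutant ARID1A). Pigment cell markers carried H3K4me3 at a gene end in 2 of 10 genes in WT (Mitf, Pmel) and 3 of 10 in the mutant (also Sox10). Fibroblast markers did so in 3 of 6 genes in both lines, neuron markers in 2 of 6 in each (Stmn2 and Gap43 in WT, Syt1 and Gap43 in the mutant) and keratinocyte markers in 1 of 6 in each (Krt10), and none of 6 endothelial or 6 blood markers did in either.

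The data below are peaks, not transcript levels. A gene-end peak lies within 1 kb of either end of the gene, since the gene table has no strand, and a locus is the gene plus 20 kb on each side. The fold enrichment is the authors' value at the summit over the caller's background. Folds of the 2 lines are printed side by side but are not on one scale, as the median H3K4me3 fold was 11.7 in WT and 16.5 in the mutant. The rank of a peak is the percent of its own list's peaks with a lower fold. In all, 888 peaks fell in member loci, and no pair of member loci overlapped. About 55.0% of the 373 WT peaks and 54.8% of the 515 mutant peaks lay inside the gene more than 1 kb from its ends.

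Start regions of 4 members are shown first, because TFAP2A and TFAP2B had peaks there at a pair of receptors, a secreted ligand and a co-receptor. Each is the 250 bases before an annotated start on the gene's own strand, from RefSeq (GRCm38.p6): Plxnd1 at chr6:115995006-115995255 (minus strand), Plxnb2 at chr15:89180789-89181038 (minus strand), Sema3c at chr5:17574566-17574815 (plus strand) and Nrp2 at chr1:62703067-62703316 (plus strand). Capitals mark matches to GCCNNNGGC, a TFAP2 consensus that reads the same on both strands.
Plxnd1: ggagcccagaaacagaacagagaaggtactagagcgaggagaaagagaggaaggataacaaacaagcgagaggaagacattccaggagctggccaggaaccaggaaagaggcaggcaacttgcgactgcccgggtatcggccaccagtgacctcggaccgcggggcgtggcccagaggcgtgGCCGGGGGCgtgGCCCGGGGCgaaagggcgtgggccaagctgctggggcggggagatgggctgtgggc
Plxnb2: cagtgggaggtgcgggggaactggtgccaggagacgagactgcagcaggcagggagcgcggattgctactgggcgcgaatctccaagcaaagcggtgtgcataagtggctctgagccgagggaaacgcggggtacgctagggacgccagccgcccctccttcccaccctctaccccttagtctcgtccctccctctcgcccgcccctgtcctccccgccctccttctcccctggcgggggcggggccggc
Sema3c: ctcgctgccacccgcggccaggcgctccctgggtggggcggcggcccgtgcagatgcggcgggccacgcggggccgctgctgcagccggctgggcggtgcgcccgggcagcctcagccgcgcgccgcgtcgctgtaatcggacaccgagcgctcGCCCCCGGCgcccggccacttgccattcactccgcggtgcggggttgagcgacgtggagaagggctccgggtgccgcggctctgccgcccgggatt
Nrp2: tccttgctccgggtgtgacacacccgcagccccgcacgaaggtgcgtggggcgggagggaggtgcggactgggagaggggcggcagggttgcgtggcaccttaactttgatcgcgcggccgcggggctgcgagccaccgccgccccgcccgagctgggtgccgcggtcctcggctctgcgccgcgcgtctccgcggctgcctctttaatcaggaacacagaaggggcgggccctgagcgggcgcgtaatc
The Plxnd1 stretch held 2 matches, 68 and 56 bases before the start, and the Sema3c stretch 1, 96 bases before it. Plxnb2 and Nrp2 held none. Not printed are the stretches of Sema4c (start at 36557557, TFAP2A folds of 23.1 in WT and 15.3 in the mutant) and Sema6c (start at 95160420, 13.7 and 12.7). They also had TFAP2B peaks and held no match. Among 32851 such stretches of all genes, 13.7% held a match, and of 37 stretches for members 8 did. Of the 11 member stretches overlapped by a TFAP2A or TFAP2B peak 4 held a match, and of the other 26 stretches 4 did. ACAANG, a SOX consensus searched on both strands, was in 36.3% of all stretches and in 12 of the 37 for members. A match describes letters only.

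H3K4me3 marked a gene end of 18 of 31 members in WT and of 24 in the mutant, where 49.3% and 53.8% of all protein-coding genes were marked. The 18 members marked in WT were all marked in the mutant. They were both neuropilins, 7 of 9 plexins, 4 of 7 secreted ligands, 4 of 12 transmembrane ligands and Sema7a. In the mutant the transmembrane ligands came to 10 of 12 and the counts of the other 4 groups were the same. Over all genes 48.7% were marked in both lines. The 6 additional genes were Sema4b, Sema4c, Sema4d, Sema4g, Sema5b and Sema6b. Over all genes 5.09% had a gene-end mark in the mutant list alone and 0.543% in the WT list alone.

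**Figure D1:**
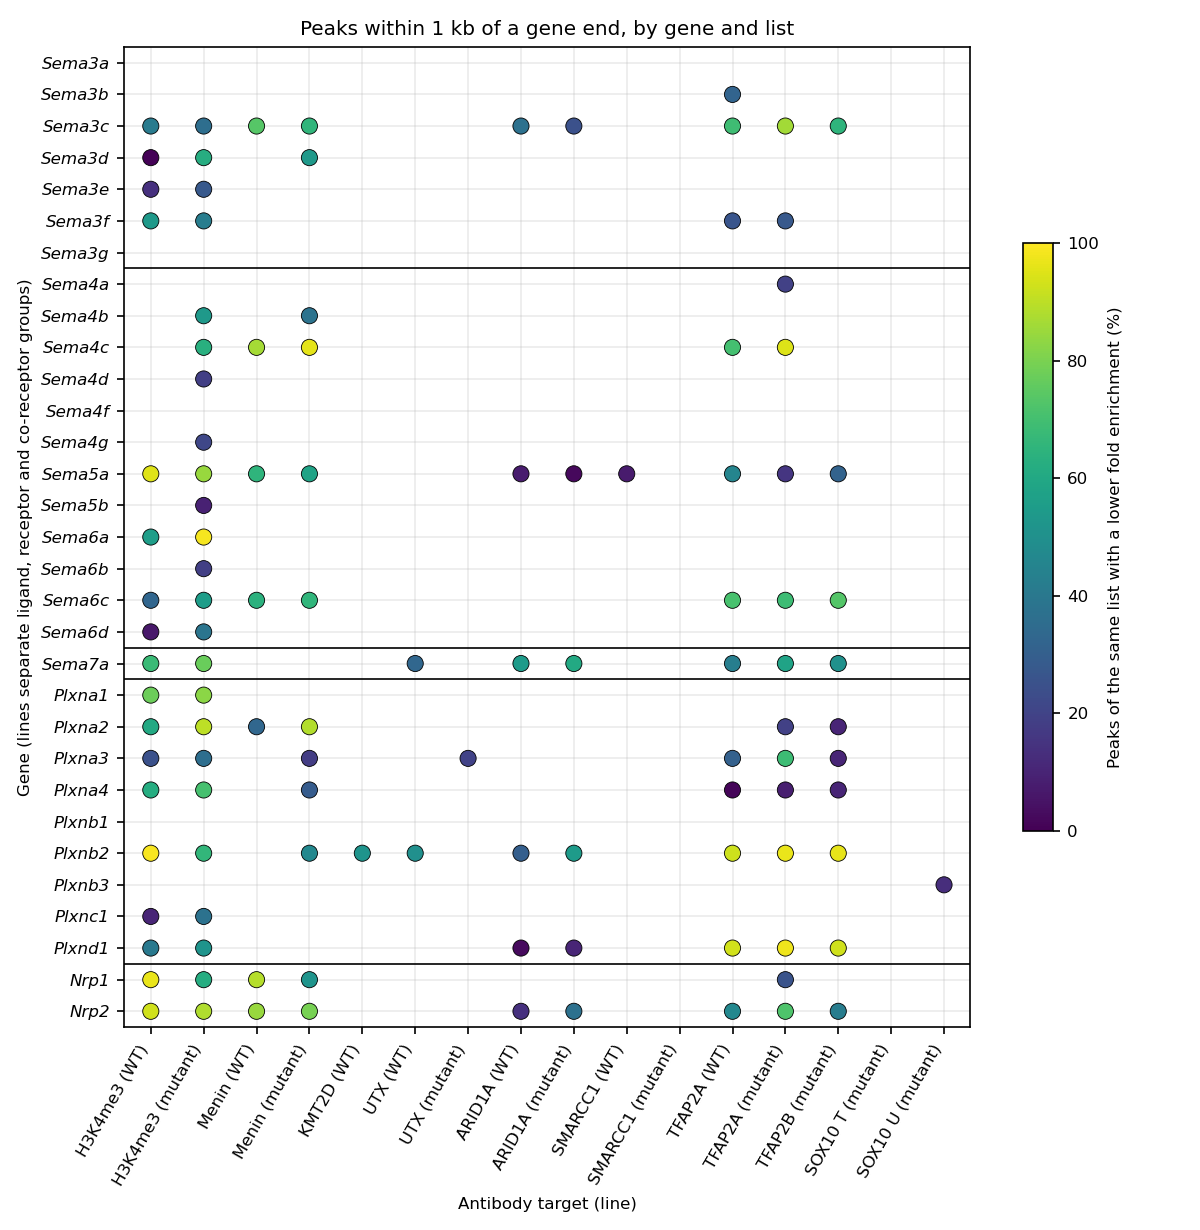
Peaks within 1 kb of a gene end for 31 genes (rows, grouped as secreted, transmembrane and GPI-anchored ligands, receptors and co-receptors) in 16 lists (columns, target and line); a circle is a peak and its colour the percent of that list's peaks with a lower fold enrichment. H3K4me3 fills 18 rows in WT and 24 in the mutant, and the SOX10 columns hold 1 circle, at Plxnb3.

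Sema4d, a ligand of Plxnb1 known from T cells and axon guidance, had no peak of any of the 9 paired targets in its locus in WT. In the mutant it had 1, an H3K4me3 peak of fold 6.40 at chr13:51793085-51793683, stronger than 18.4% of its list. Its 3 starts in the promoter table lie at least 36995 bp inside the gene and were not marked in either line. Sema5b, a ligand with thrombospondin repeats, likewise had no WT peak, and 3 mutant H3K4me3 peaks at its lower-coordinate end had folds of 5.09, 3.78 and 4.10, none above more than 9.05% of the list. Of the 6 genes, these 2 had no WT H3K4me3 peak within 5 kb of the gene. Both marks were thus weak ones in the mutant list.

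Sema4g, a partner of Plxnb2, had a mutant H3K4me3 peak of fold 6.87 at its annotated start (chr19:44988719-44989779) and no WT peak there. The other 3 genes were marked in both lines at an annotated start farther inside the gene. Sema4b had folds of 22.7 (WT) and 44.8 (mutant) at the start at 80198588 on chromosome 7, and 17.9 in the mutant alone at the outer start at 80186870. Sema4c, a ligand of Plxnb2, had 21.8 and 38.6 at its starts. Its 2 mutant gene-end peaks lay at its far end, the stronger one (21.5) next to Ankrd39. Sema4c stayed among the 6 genes when peaks at another gene's end were left out. Sema6b had 3.68 and 8.04 at the start at 56133852 on chromosome 17, with 6.40 in the mutant alone at the outer one. Only Sema4g and Sema5b were therefore marked in the mutant alone when annotated starts were used, over the 26 members that have one in the table (18 in WT, 20 in the mutant). Over the 17492 genes with such a start the shares were 52.1% in WT and 56.2% in the mutant, and 4.60% in the mutant alone. Scaled to equal depth, the gene-end rule gave the same 6 genes. That scaling kept 16204 of 16438 mutant H3K4me3 peaks, 849 of them because they were not recovered, so it could change few calls. With −log10 q of 5 or more, 9 members were marked in the mutant alone. Sema5b was then no longer among them, and Plxnc1, Sema3d, Sema3e and Sema6d were. The share of all genes was not counted in that setting.

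The neuropilins carried broad H3K4me3. The peak at the start of Nrp1, the co-receptor for Sema3a and for vascular endothelial growth factor, was 5177 bp wide in WT and 4838 bp in the mutant, with folds of 25.7 and 21.1. That of Nrp2, the preferred co-receptor of Sema3f, was 4781 and 5143 bp wide, with folds of 23.3 and 32.7. The Nrp1 peak stood above 96.6% of the WT list and 62.1% of the mutant list, the Nrp2 peak above 92.7% and 88.2%. The median H3K4me3 peak was 1323 bp wide in WT and 1273 bp in the mutant, so both exceeded it more than 3 times in either line. Leaving out peaks at another gene's end, the widest member peak of WT was at Sema6d (5935 bp, against 5797 bp in the mutant), and that of the mutant was at Sema4c (6598 bp, against 4159 bp in WT). Sema5a was about as wide as the neuropilins (5173 bp in WT and 4804 bp in the mutant), so such width was not theirs alone. The share of all H3K4me3 peaks this wide was not counted.

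Among the receptors, Plxnb2 had the strongest WT gene-end mark, with a fold of 29.6 above 99.1% of its list. Its mutant fold was 22.5, above 65.7% of the mutant list. That peak and the one at Plxna1 also reach the end of a neighbouring gene. Plxna1 (18.1 and 29.7), Plxna4 (14.3 and 24.5) and Plxna2 (13.8 and 34.0), which take class 3 and class 6 ligands, were marked in both lines. Plxna3 (6.28 and 11.0), Plxnd1, the receptor of Sema3e (9.43 and 17.2), and Plxnc1, the receptor of Sema7a (4.48 and 11.6), had lower folds. Plxnb1, the receptor of Sema4d, had no gene-end mark in either line, but its annotated start lies 1587 bp inside the gene and had folds of 15.4 and 14.6. Plxnb3, a receptor of Sema5a, was not marked at its start or within the gene.

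Among the ligands, Sema5a (24.4 in WT and 30.5 in the mutant), Sema7a (15.7 and 27.2), Sema6a (12.9 and 45.5), Sema3f (12.5 and 13.3) and Sema3c (9.67 and 11.0) were marked in both lines. Sema6a, a ligand of Plxna2 and Plxna4, was above 55.6% of the WT list and 98.7% of the mutant list. Sema3d had folds of 3.20 and 21.2, at 0.634% and 62.2% of the lists. Both genes thus stood higher within the mutant list than within the WT list, from 1 library each. Sema7a did too (67.9% and 77.2%). Sema5a (94.9% in WT and 84.4% in the mutant), Sema3f (53.8% and 42.0%) and Sema3c (41.1% and 35.9%) stood lower within the mutant list, although their folds were higher. Sema3a, the axon repellent first described as collapsin, had its marks inside the gene, at chr5:13399177-13403031 in WT (fold 21.8) and chr5:13398342-13400779 in the mutant (25.4). Its annotated start lies at 13396784. Sema3g and Sema4a had no gene-end mark in either line. Sema4f had no H3K4me3 peak anywhere in its locus in either line, the only member without one in the mutant.

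Menin was at a gene end of 7 members in WT and 12 in the mutant, against 31.6% and 37.9% of all genes. All 7 were also marked by H3K4me3 in the mutant, as the plot of gene-end peaks shows. They were both neuropilins, Plxna2, Sema3c, Sema4c, Sema5a and Sema6c. The mutant list added Plxna3, Plxna4, Plxnb2, Sema3d and Sema4b, where 8.28% of all genes had Menin in the mutant alone and 1.92% in WT alone. Plxnb2 and Sema4b also had WT Menin at an annotated start farther inside the gene (8.70 and 5.89, with 8.85 and 6.54 in the mutant). By annotated starts Menin was at 10 of 26 members in WT and 11 in the mutant. Plxna3 and Sema3d were then in the mutant alone and Plxnb1 in WT alone. The share of all genes was not counted for Menin at starts. ARID1A was at the ends of the same 6 members in both lines (15.7% and 20.9% of all genes), Nrp2, Plxnb2, Plxnd1, Sema3c, Sema5a and Sema7a. UTX was at 2 in WT (Plxnb2, Sema7a) and 1 in the mutant (Plxna3), with 11.1% and 8.86% of all genes. SMARCC1 was at Sema5a in WT alone (2.72% and 0.598% of all genes). ARID2 (0.986% of all genes in WT, 0.932% in the mutant), PBRM1 (1.90% and 2.03%) and BRD9 (0.210% and 0.0183%), whose lists held at most 689 peaks, were at no member's end.

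TFAP2A was at a gene end of 12 members in WT and 14 in the mutant, beside 24.6% and 34.0% of all genes, and TFAP2B at 10 in the mutant, beside 21.9%. The strongest were at receptors. Plxnd1 had TFAP2A folds of 31.7 in WT and 55.1 in the mutant and a TFAP2B fold of 24.0. Plxnb2 had 30.4, 50.9 and 31.1, and its TFAP2B peak was the highest of that list in any member locus. Sema3c, a ligand of both neuropilins, had 13.2, 23.8 and 9.77, with all 3 summits at position -221 from the start. Nrp2 had 8.71, 13.8 and 6.58, with TFAP2A summits after the start, at 88 in WT and 224 in the mutant, outside the stretch printed above. In Plxnd1 the TFAP2A summits lay at -134 and -163 and in Plxnb2 at -129 and -166, inside the printed stretches. The TFAP2B summit lay inside the stretch in Plxnb2 (-160), and after the start, outside the stretch, in Plxnd1 (103) and Nrp2 (233). The WT-only gene was Sema3b (7.03), where 1.20% of all genes had TFAP2A in WT alone. The 3 mutant-only genes were Nrp1 (5.37), Plxna2 (5.09) and Sema4a (5.09), where 10.6% of all genes had it in the mutant alone, a share close to that of the members. The direction between lines turned at equal depth, where 12 members had TFAP2A in WT and 9 in the mutant, with 3 in WT alone (Plxna4, Sema3b, Sema5a) and 0 in the mutant alone. It also turned when only peaks with −log10 q of 5 or more were kept (11 and 9) and with a window of 0.5 kb (10 and 8). The shares of all genes were not counted in these settings. Sema4c had its TFAP2A gene-end peak (13.3 and 40.7) at its far end, next to Ankrd39, so that peak cannot be assigned to Sema4c. At its own annotated starts Sema4c had TFAP2A folds of 23.1 in WT and 15.3 in the mutant, and a TFAP2B fold of 6.22. Sema4b likewise had 13.9, 9.33 and 5.33 at the start at 80198588.

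In the wider loci, H3K4me3 had a peak at 28 members in WT and 30 in the mutant (63.9% and 67.7% of all genes), Menin at 19 and 21 (48.2% and 53.9%), UTX at 18 and 21 (34.3% and 31.6%) and ARID1A at 24 and 26 (49.8% and 54.8%). TFAP2A was at 24 and 29 (46.9% and 58.0%), TFAP2B in the mutant at 21 (40.8%) and SMARCC1 at 15 in each line (28.2% and 10.0%). For these 7 targets the share of members was above that of all genes. ARID2 was at 1 member in each line (3.63% and 2.47%), and PBRM1 (3.81% and 4.17%) and BRD9 (0.840% and 0.110%) were at none. Members are longer than most genes. Among genes of at least 100 kb the gap was smaller for each of the 7 targets, though only slightly for SMARCC1. ARID1A was at 12 of 14 such members in each line beside 73.6% and 76.3% of all genes that long, and UTX at 8 and 12 beside 50.4% and 53.2%.

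Over the 9 paired targets, member loci held 343 peaks in WT and 433 in the mutant, a ratio of 1.26, where all peaks of these lists gave 1.08. More mutant than WT peaks were counted at 24 members and the reverse at 5, with 2 equal. Over all genes 42.9% had more mutant peaks and 20.5% more WT peaks. The median member was 40529 bp long, against 17146 bp for all genes. Of the 14 members of at least 100 kb 12 had more mutant peaks, and of all genes that long 47.5% did. At equal depth 18 members had more mutant peaks and 7 more WT peaks. The shares of all genes were not counted at equal depth. The part of the depth gap between lines in these counts was otherwise not tested.

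**Figure D2:**
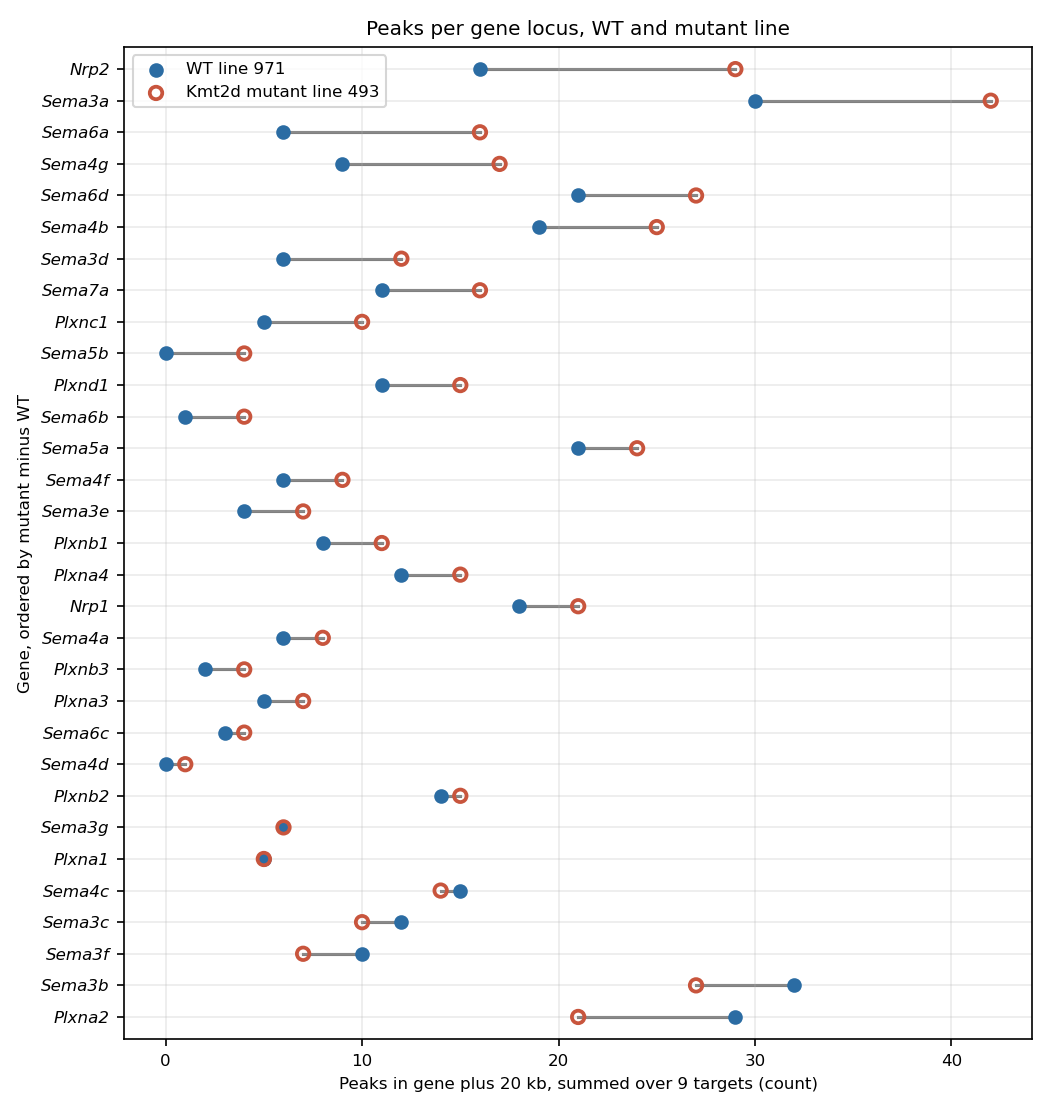
Peaks in the gene plus 20 kb on each side, summed over 9 targets with a list in both lines (x axis, count), for 31 genes ordered by mutant minus WT; filled blue circles are WT and open red circles the mutant, 1 library per target and line. Nrp2 stands at 16 and 29 at the top, and Plxna2 at 29 and 21 at the bottom.

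By target, the mutant to WT ratio of member-locus peaks was 1.33 for H3K4me3 (52 and 69 peaks), 1.28 for Menin (58 and 74), 1.35 for UTX (37 and 50), 1.34 for ARID1A (87 and 117), 1.60 for TFAP2A (63 and 101) and 0.467 for SMARCC1 (45 and 21). The whole lists gave 1.12, 1.24, 0.999, 1.14, 1.59 and 0.253. The member ratio was thus above that of its list for H3K4me3, UTX, ARID1A and SMARCC1, and close to it for Menin and TFAP2A. At equal depth the member ratios were 1.27, 1.09, 1.19, 1.29, 1.16 and 0.600, and those of the lists 1.10, 0.942, 0.848, 1.09, 1.17 and 0.337. TFAP2A was then slightly below its list and the other 5 above theirs.

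Nrp2 (chr1:62703317-62818692) had the largest gain, from 16 WT to 29 mutant peaks, or 14 and 23 at equal depth. UTX went from 0 to 5 peaks, TFAP2A from 3 to 8, Menin from 4 to 7 and ARID1A from 5 to 7, while H3K4me3 had 2 in each line and SMARCC1 went from 2 to 0. The peaks merged into 10 regions, of which 4 were called in both lines, 6 in mutant lists alone and none in WT lists alone. The most crowded, at chr1:62721347-62722324, was called in 6 WT and 6 mutant lists. Another, about chr1:62743173-62743685, lies 39856 bp inside the gene and was called in 6 mutant lists (ARID1A, UTX, TFAP2A, TFAP2B and both SOX10 antibodies) and in no WT list. Of these targets ARID1A, UTX and TFAP2A were mapped in WT. Its SOX10 fold with antibody U was 14.5, above 91.4% of that list.

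**Figure D3:**
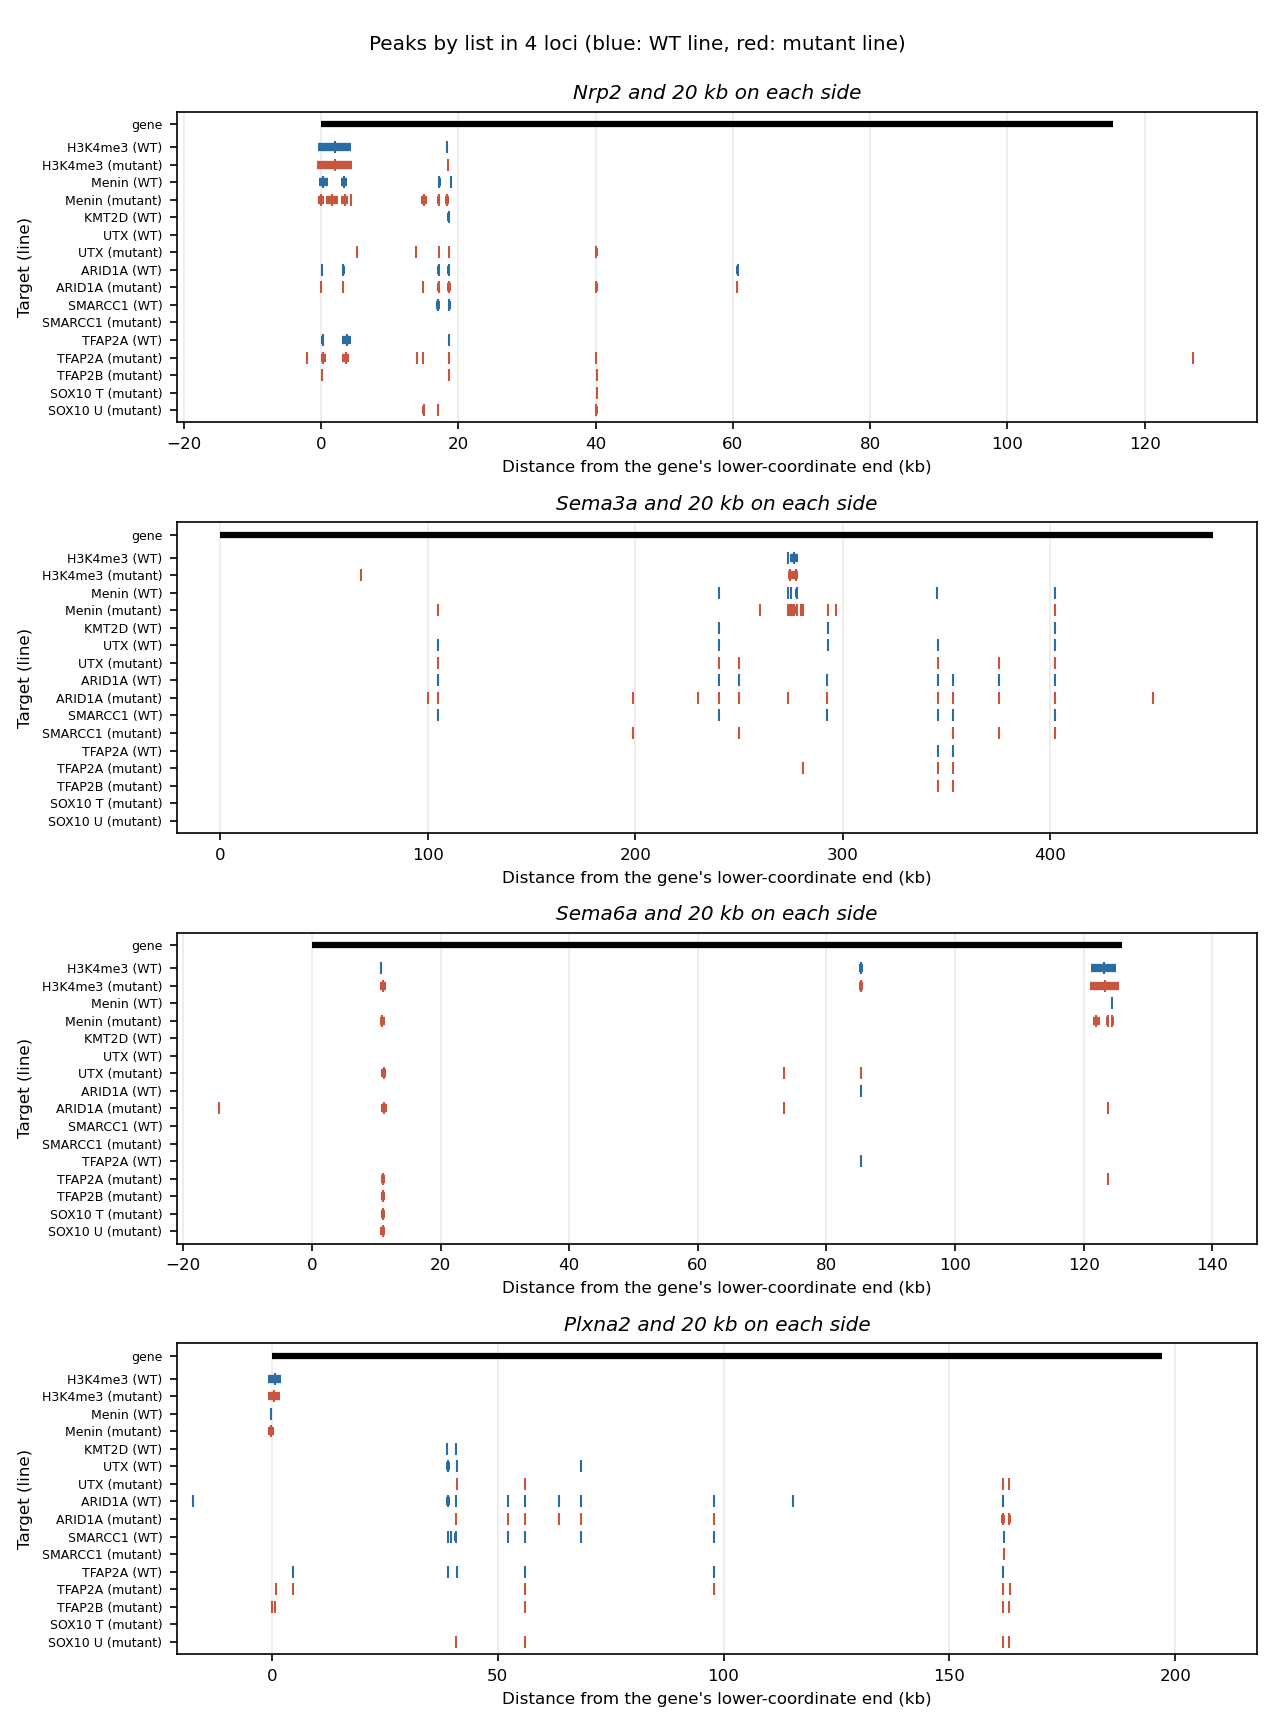
Peaks in 4 loci by list, with distance from the gene's lower-coordinate end in kb on the x axis and a row for each target and line; horizontal bars are peaks to scale, vertical ticks mark their centres, and the black bar is the gene. In Nrp2 the rows of the mutant line hold a column of peaks near 40 kb that no WT row has, and in Plxna2 the WT rows hold one near 39 kb that no mutant row has.

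Sema3a (chr5:13124822-13603485) went from 30 to 42 peaks (30 and 38 at equal depth), with Menin at 6 and 12 and ARID1A at 8 and 13. Of its 18 regions 9 were in both lines and 9 in mutant lists alone. It had 2 TFAP2A peaks in WT, 3 in the mutant and no SOX10 peak. Sema6a (chr18:47245254-47371200) went from 6 to 16 (6 and 13 at equal depth), with UTX at 0 and 3, Menin at 1 and 4 and ARID1A at 1 and 4. In 1 region near chr18:47255889-47256682, 8 mutant lists had a peak, 5 of them of targets mapped in both lines. The only WT peak there was a weak one of H3K4me3, with a fold of 3.28 against 8.04 in the mutant.

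Sema4g went from 9 to 17 peaks, or 9 and 15 at equal depth, and most of these lay in a flank that holds ends of other genes. Sema3d (chr5:12383161-12588953) went from 6 to 12. Its UTX peaks numbered 1 and 3 and its TFAP2A peaks 0 and 2, and the mutant list of SOX10 antibody U had 3.

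In the other direction, Plxna2 (chr1:194619791-194816869) had 29 WT and 21 mutant peaks, or 27 and 18 at equal depth. In the main count SMARCC1 accounted for most of the difference, with 8 and 1 peaks, and without SMARCC1 the counts were 21 and 20. The whole SMARCC1 list was also shorter in the mutant (2910 peaks, against 11507 in WT). One WT cluster had no mutant counterpart in any list: KMT2D (fold 6.50, chr1:194658512-194658808), UTX (12.3), ARID1A (19.0), TFAP2A (6.47) and SMARCC1 (6.27) overlapped there. KMT2D was not mapped in the mutant. The gene also held the reverse, at chr1:194782880-194783280, where ARID1A, UTX, TFAP2A, TFAP2B and SOX10 antibody U had peaks in the mutant and no WT list had one, with TFAP2B and SOX10 not mapped in WT. Sema3b, a candidate tumour suppressor in lung cancer, had 32 and 27 peaks, of which Menin made 8 and 5. Sema3f had 10 and 7, Sema3c 12 and 10 and Sema4c 15 and 14, which differ by 3 peaks or fewer.

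Single strong sites also lay inside long members. In Sema5a, whose receptor Plxnb3 is named above, ARID1A (fold 36.1, chr15:32322621-32323143) and SMARCC1 (27.8) had in WT their strongest member peaks at the same place. In Sema6d, a ligand of Plxna1, TFAP2A in WT reached 45.1 at chr2:124609603-124610986, inside the H3K4me3 peak of 5935 bp. In Plxnb1 a mutant TFAP2A peak of fold 22.9 lay at chr9:109097605-109098157.

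Of the strongest member peaks in each list, many lay in flanks. Beside Sema4b, ARID1A had its strongest mutant member peak (78.7, chr7:80166510-80167294), with 33.4 in WT, and beside Sema4g H3K4me3 had folds of 30.0 in WT and 71.4 in the mutant. Of that pair the wider mutant peak reaches another gene's end and the WT peak does not. Beside Sema3b, UTX in WT reached 44.9 and 40.3 and ARID1A in the mutant 59.6. At the site of that first UTX peak SMARCC1 in the mutant had a fold of 7.73. Menin beside the same gene reached 16.5 in WT and 17.4 in the mutant. Within Sema3a the leading WT peaks were of ARID1A (29.8), UTX (27.4) and SMARCC1 (19.7), the last 2 at the same place (chr5:13364901-13365530), and in the mutant SMARCC1 reached 12.6 at chr5:13477638-13477979. Within Nrp1, UTX in the mutant reached 23.1 at the SOX10 site at chr8:128428793-128429397.

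Some loci are crowded with other genes, so a peak there need not belong to the member. Over all lists 85.7% of the peaks in the Plxnb3 locus lay within 1 kb of another gene's end, 70.0% for Plxnb1, 58.3% for Sema3g and 51.4% for Sema3b, and none for Nrp1, Nrp2, Plxna2, Plxna4 or Sema3a. Leaving such peaks out kept the count of members with more mutant peaks at 24.

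KMT2D, mapped in WT, had 30 peaks in the loci of 16 members (51.6%, against 27.7% of all genes). Among genes of at least 100 kb the shares were 8 of 14 members and 35.8% of all. Of the 30 peaks 17 lay inside the gene, 12 in the flanks and 1 at a gene end, that of Plxnb2 (chr15:89180807-89181067, fold 9.35). At gene ends KMT2D was found at 10.1% of all genes. The loci of Sema3b and Sema4b held 5 peaks each and that of Sema3a 3. The member peaks were mostly weak ones, with a median fold of 6.65 against 9.30 for the list, and 7 of the 30 exceeded the list's median.

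The 2 strongest were in the flank of Sema3b, at chr9:107587469-107587858 (fold 31.0) and chr9:107579547-107579807 (26.8), and both lie at the end of another gene. The region around the latter was called in 15 lists. The next was beside Sema4f, at chr6:82909089-82909624 (16.3), 2260 bp from the gene and at no other gene's end. There UTX (23.6 and 8.70), ARID1A (29.8 and 30.6) and SMARCC1 (19.7 and 4.83) had peaks in WT and in the mutant. The peak inside Sema3b (12.8) lay under its strongest TFAP2A peaks, of fold 53.5 in WT and 86.5 in the mutant (chr9:107605034-107605861), above 98.3% and 99.2% of their lists. Sema4f, without H3K4me3, thus held KMT2D, UTX and ARID1A peaks at a pair of sites.

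**Figure D4:**
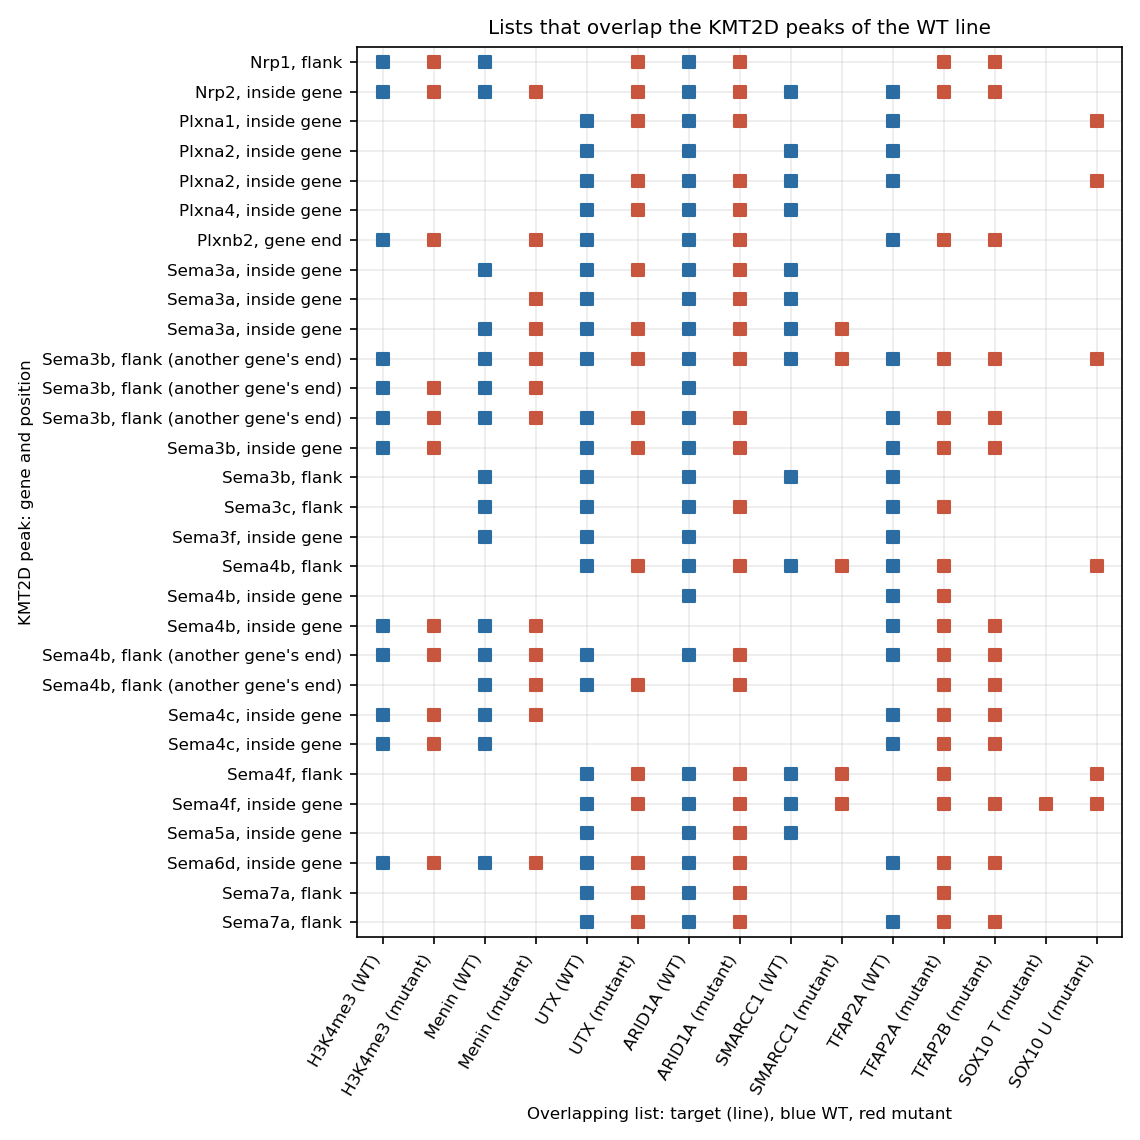
The 30 KMT2D peaks of WT in semaphorin, plexin and neuropilin loci (rows, with gene and position) and the lists that overlap each by at least 1 bp (columns; blue squares WT, red squares mutant). ARID1A of WT overlaps 26 rows and UTX of WT 23, and 3 rows (in Plxna2, Sema3b and Sema3f) hold no red square.

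UTX of WT overlapped 23 of the 30 KMT2D peaks (76.7%, Wilson 95% interval 59.1% to 88.2%, for counting error only), against 88.3% of all KMT2D peaks. ARID1A overlapped 26 (86.7%, 70.3% to 94.7%, against 87.7%), TFAP2A 19 (63.3%, 45.5% to 78.1%, against 57.7%), Menin 16 (53.3%, 36.1% to 69.8%, against 37.7%) and H3K4me3 12 (40.0%, 24.6% to 57.7%, against 34.7%). Each whole-list share but that of UTX lay inside the member interval, and that of UTX was just above it. UTX and ARID1A together were at 22 of the 30 peaks, 16 of them without H3K4me3. In the mutant, 27 of the 30 sites had a peak of some target. The 3 without one were at Plxna2, Sema3b and Sema3f (10.0%, 3.46% to 25.6%, against 8.07% of all KMT2D peaks).

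SOX10, mapped in the mutant with antibody U, had 28 peaks in the loci of 16 members (51.6%, against 20.6% of all genes). Among genes of at least 100 kb the shares were 8 of 14 members and 43.3% of all. A gene-end peak was at Plxnb3 alone, beside 3.83% of all genes, and 21 of the 28 lay inside the gene. Plxna2 held 4 peaks, and Nrp2 and Sema3d 3 each. Antibody T gave 8 peaks in 8 members (25.8%, against 5.21% of all genes), and none at a gene end (0.932% of all genes). Those were Nrp1, Nrp2, Sema3b, Sema3c, Sema3e, Sema4f, Sema5a and Sema6a. All 8 overlapped a peak of antibody U, as did 83.7% of the whole T list.

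The strongest was inside Sema3e, the ligand of Plxnd1, at chr5:14195212-14195635, with a fold of 26.3 above 98.8% of the U list. The T fold there was 12.2. UTX had its highest mutant peak in any member locus at this site (26.1), while no WT UTX peak was called in the Sema3e locus. ARID1A was called in both lines, with folds of 6.22 in WT and 24.2 in the mutant, above 24.4% and 88.5% of their lists. The site in Sema6a came next (18.1 with U and 12.8 with T), with UTX at 21.8 and TFAP2A at 22.9. Sites inside Sema5a (14.9), Nrp2 (14.5) and Nrp1 (13.1, chr8:128428793-128429397) followed.

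**Figure D5:**
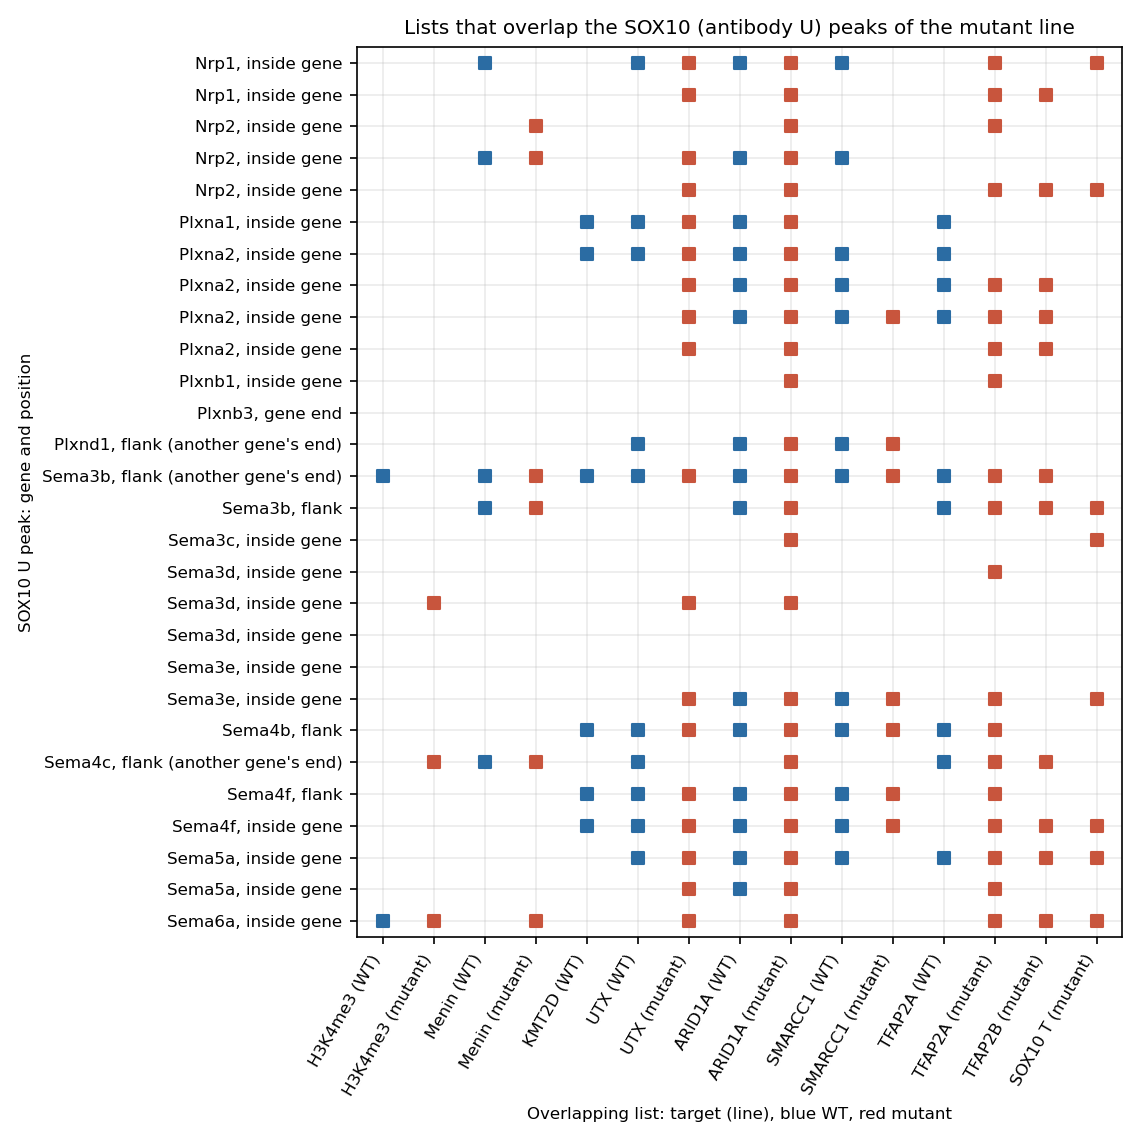
The 28 peaks of SOX10 antibody U in the mutant line that lie in semaphorin, plexin and neuropilin loci (rows, with gene and position) and the lists that overlap each by at least 1 bp (columns; blue squares WT, red squares mutant). ARID1A of the mutant overlaps 24 rows and TFAP2A of the mutant 19, and 11 rows hold no blue square.

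In the mutant, ARID1A overlapped 24 of the 28 SOX10 peaks (85.7%, 68.5% to 94.3%, against 74.7% of all peaks of antibody U), TFAP2A 19 (67.9%, 49.3% to 82.1%, against 48.4%), UTX 18 (64.3%, 45.8% to 79.3%, against 60.7%) and TFAP2B 11 (39.3%, 23.6% to 57.6%, against 27.0%). SMARCC1 was at 7 of the 28 (interval 12.7% to 43.4%, against 12.6%). The whole-list shares of TFAP2A and SMARCC1 were just under the member intervals, and those of ARID1A, UTX and TFAP2B lay inside theirs. H3K4me3 was at 3 (10.7%, 3.71% to 27.2%, against 16.4%). In WT 11 of the 28 sites had no peak of any target (39.3%, 23.6% to 57.6%, against 41.9%). They were in Nrp1, Nrp2, Plxna2, Plxnb1, Plxnb3, Sema3c, Sema3d and Sema3e. SOX10 was not mapped here in WT, so whether it was bound there is not known.

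Sharing between lines varied with the target. Of the WT peaks in member loci, 94.2% of H3K4me3 (84.4% to 98.0%), 83.9% of ARID1A (74.8% to 90.2%), 81.0% of TFAP2A (69.6% to 88.8%), 74.1% of Menin (61.6% to 83.7%), 64.9% of UTX (48.8% to 78.2%) and 26.7% of SMARCC1 (16.0% to 41.0%) overlapped a mutant peak of the same target. For the whole lists these shares were 91.7%, 70.9%, 82.5%, 77.0%, 53.3% and 16.9%. The ARID1A list's share was below the member interval and the others lay inside theirs. Taken from the mutant side the order differed: 71.0% of mutant H3K4me3 peaks, 62.4% of ARID1A, 58.1% of Menin, 57.1% of SMARCC1, 51.5% of TFAP2A and 48.0% of UTX overlapped a WT peak. The whole mutant lists gave 79.8%, 62.5%, 62.7%, 67.3%, 52.6% and 54.6%. Merged over all targets and both lines, member peaks formed 209 regions, 115 in both lines, 74 in mutant lists alone and 20 in WT lists alone, and 69 were in 1 list only. The mutant has 2 more lists than WT, and most of its paired lists had the higher rebuilt depth. Peaks outside member loci were not merged in this way, so no share over all genes stands beside these counts.

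Genes that act with or downstream of semaphorin receptors were counted in the same way, over a list of 42. H3K4me3 was at a gene end of 32 in WT and 37 in the mutant, beside 49.3% and 53.8% of all genes. The 5 in the mutant alone (5.09% of all genes) were the adhesion molecules Chl1 (fold 13.6) and L1cam (9.69), the collapsin response mediators Dpysl2 (8.70) and Dpysl5 (9.03), and Sh3bp1 (13.0), a GTPase-activating protein. KMT2D was at 9 (10.1% of all genes), among them Rras (115.8), a GTPase that plexins inactivate, Limk1 (65.1) and Gsk3b (47.4). TFAP2A was at 15 in WT and 27 in the mutant (24.6% and 34.0% of all genes), with none in WT alone (1.20%). These counts were not scaled to equal depth. The 12 in the mutant alone (10.6% of all genes) included the receptors Met (4.23), Erbb2 (7.64) and Flt1 (11.0). SOX10 antibody U was at 6 (3.83% of all genes), among them Chl1 (9.97), where UTX, ARID1A, TFAP2A and H3K4me3 had gene-end peaks in the mutant and none of them had one in WT.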

How the data were processed

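The 22 deposited narrowPeak lists were made by the authors with Bowtie2 and MACS2 on mm10, with FastQC and MultiQC, per the submitters' processing notes. The caller's control and settings, and tool versions, are not given in the sources used here. A deposited peak carries a score, a fold enrichment (a ratio), and −log10 p and −log10 q values. The lowest deposited −log10 q per list ran from 1.30 to 1.59.

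Genes came from the RefSeq table of GRCm38.p6 and start regions from the matching promoter table, which held a start for 26 of 31 members. Overlap meant at least 1 bp. Equal depth was rebuilt from the authors' fold and −log10 p at summits and the width of each list's narrowest peak. The deeper list of a target was scaled down to the other's depth, peaks under its lowest −log10 p were dropped, and peaks not recovered were kept. Rebuilding and counting were tested on simulated data.

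The members, the list of partner genes and the markers were chosen with earlier results of these data known. All members are named. Those described in full were members with H3K4me3 at a gene end in 1 line, members with KMT2D at a gene end, the 5 with the largest difference in peaks each way and the 3 strongest member peaks per list of at least 1000 peaks. Other members were named by role, or after their values were seen. Alternatives were windows, flanks, annotated starts, −log10 q of at least 5, a larger overlap, equal depth and removal of crowded regions. Removal of peaks at other genes' ends and of SMARCC1 was added after seeing the data. Tables were read with pandas 2.3.3 and NumPy 2.4.6 under Python 3.11.15. Intervals came from SciPy 1.17.1, and plots from Matplotlib 3.10.9.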

Additional observations from a re-analysis of the deposited data

How the results depend on the processing

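Of 434 values recomputed under alternatives, 370 stayed within 1.5 times the main count or inside its interval and 64 moved. Among the 87 that answer a comparison, 10 moved. The mutant count of peaks in member loci was 655 with flanks of 50 kb in place of 433. The members with H3K4me3 in the mutant alone, 6 at gene ends, were 2 at annotated starts and 2 when no WT peak was allowed within 5 kb of the gene. Members with KMT2D at a gene end, 1 in the main count, were 3 at annotated starts, 0 with a window of 0.5 kb and 5 with 2.5 kb. Members with mutant TFAP2A at a gene end, 14 in the main count, were 9 at a −log10 q of at least 5, 9 at equal depth and 8 with a window of 0.5 kb, under WT counts of 11, 12 and 10 in the same settings. Members with more WT than mutant peaks were 9 at a −log10 q of at least 5 in place of 5. The cause of these shifts was not tested, beyond the windows and flanks being narrower or wider by construction. Shares of all genes were counted for H3K4me3 and TFAP2A at annotated starts and in no other alternative. Nrp1, Plxna2 and Sema4a, with TFAP2A at a gene end in the mutant alone, were no longer in that class at equal depth or at a −log10 q of at least 5. No paired analysis was possible because each target and line has 1 library and the labels carry no replicate numbers. Weak peaks are limited by the depth at which each list was called, and the lists hold no read counts. The rebuilt depth is not a new call of peaks at lower depth, and a peak absent from a list is not shown to be absent from the cells.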
